A study of Mus musculus with 32 samples.

Results

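Iron enters, crosses and leaves cells through a small set of proteins, and 7 of their genes and regulators were followed: Trf, Tfrc, Slc39a14, Slc11a2, Slc40a1, Slc25a37 and Epas1. They were taken by gene name from tables of 4 organs, which together held 10055 genes. The tables compared male mice lacking ketohexokinase (Khk KO) with male wild-type mice (WT), in a series that asked how fructose and this enzyme act on iron homeostasis. Khk encodes this enzyme, which phosphorylates fructose as its breakdown begins. Polyadenylated RNA was sequenced from liver, duodenum, jejunum and ileum, with 4 libraries for each organ and genotype and 32 in all. The strain, age, diet and the kind of Khk deletion are not given in the sources used here. The labels number the libraries of a group 1 to 4 without saying how they were drawn, so the p-values measure the spread between these libraries.

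Iron travels in blood bound to transferrin, and cells take up the loaded protein through the transferrin receptor. Iron then crosses the endosome membrane through a divalent metal transporter, is used in mitochondria, is stored in ferritin or leaves the cell through ferroportin. In the duodenum the same divalent transporter takes up dietary iron and ferroportin passes it to the blood, while the liver makes transferrin and hepcidin, the hormone that removes ferroportin from the cell surface. Iron-regulatory proteins bind short hairpins in some of these messenger RNAs, called iron-responsive elements, and protect the receptor's message or block translation of ferroportin's when iron is scarce.

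Of the 7 genes, 2 matched a strict pattern of that hairpin. Their elements are shown because Tfrc and Slc40a1 stand at opposite ends of the pathway, uptake and export. The search in GENCODE M21 transcripts (build GRCm38) was for C, any 5 bases, CAGTGN and 5 bases that pair with the first 5. This pattern occurred in 294 of 21877 protein-coding genes, or 1.34%. Tfrc had 4 matches, all in the 3′ UTR, in exon 19 of 19 and on the plus strand, and Slc40a1 had 1 match, in the 5′ UTR, in exon 1 of 8 and on the minus strand. Each line gives 29 bases of the sense strand, 5′ to 3′, with the unpaired C and the loop in capitals.
Tfrc, chr16:32631219-32631247: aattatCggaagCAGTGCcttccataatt
Tfrc, chr16:32631598-32631626: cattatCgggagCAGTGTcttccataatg
Tfrc, chr16:32631663-32631691: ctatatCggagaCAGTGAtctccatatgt
Tfrc, chr16:32631710-32631738: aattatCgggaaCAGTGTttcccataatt
Slc40a1, chr1:45925465-45925493: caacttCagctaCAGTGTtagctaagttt
This pattern was not found in transcripts of the other 5 genes, which says nothing more than that. It allows no bulge or mismatch within the 5 pairs, so elements with either would be missed. A match is a description of the sequence and not a measurement of protein binding.

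The 7 genes filled 12 of 28 possible places in the 4 tables. Liver held 6 of them (all but Slc40a1), jejunum 3 (Trf, Tfrc and Slc25a37), ileum 2 (Trf and Slc40a1) and duodenum 1 (Slc25a37). Each table kept only genes with an unadjusted p below 0.05 in the authors' test of Khk KO against WT, so a gene's presence already reflects that contrast and its absence leaves the level unknown. The authors' unadjusted p was below that limit for 34.9% of the genes they adjusted over in liver, for 9.16% of those in duodenum, for 16.7% in jejunum and for 29.6% in ileum. Slc11a2 and Slc40a1, the apical importer and the exporter of the duodenum, were thus not in the duodenum table, and their levels there are not analysed here.

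Values for each library are the authors' normalised counts, the read count divided by one size factor for that library. Reads of the listed genes summed to between 7505439 and 14331517 per liver library, and to between 1722220 and 9149003 in the intestinal libraries. The targeted gene, Khk, held 11.1% of the WT level in Khk KO liver, with 4.59%, 9.25% and 6.65% left in duodenum, jejunum and ileum and no overlap of the genotypes. WT replicate 1 stood apart in the 3 intestinal segments. Its Khk was 24008 normalised counts in duodenum (9414 to 12314 in WT replicates 2 to 4), 13852 in jejunum (5579.5 to 6647) and 2617 in ileum (1174 to 1431). The chi-square per degree of freedom between its counts and those of another WT library lay between 142 and 299 in duodenum, between 137 and 179.9 in jejunum and between 90.5 and 113.5 in ileum, against 16.2 to 37.6 for pairs of the other WT libraries of these organs. In liver WT replicates 1 and 3 differed most (233). Values without WT replicate 1 are given with the results. Fold change followed gene length within every table. Among protein-coding genes averaging 50 or more normalised counts, Spearman's rho between them was 0.77 for liver (4915 genes), 0.57 for duodenum (1115), 0.68 for jejunum (1694) and 0.76 for ileum (4164). Genes are not independent replicates, and rho is given without a test. Changes of the 7 genes are therefore also given from a fit in which this trend was taken out of every library, a fit that would also remove a genotype effect that follows length. Library names of the duodenum samples are numbered in another series than those of liver, jejunum and ileum. Organ and numbering cannot be told apart for the duodenum, and both genotypes share each series.

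In liver, 3 of the 6 listed genes rose in Khk KO, Slc25a37 by 2.07-fold, Tfrc by 1.81-fold and Epas1 by 1.58-fold, and none fell, at an adjusted p below 0.05 in edgeR's quasi-likelihood test. The same test called 14.7% of the 18225 genes adjusted over in liver, 7.19% higher and 7.49% lower. Genes outside the table were not fitted and count as not called, here and in the edgeR shares of all genes below. Of the genes that were in the liver table and fitted, the test called 46.7%, so that 3 of 6 is near the ordinary share for this table. By the adjusted p of the authors' deposited table, 4 of the genes were higher and 1 was lower, where it called 23.9% of all genes, 12.5% higher and 11.4% lower, and 68.5% of the genes in the table. The median log2 fold change of the 6 genes was 0.57, and that of the whole liver table was 0.33. With the length trend taken out, 1 of the 6, Slc25a37, passed. In that fit 786 of the 5734 fitted genes of the liver table passed, so that 1 of 6 is near the ordinary share. WT replicate 1 and other single libraries moved the number that passed to between 0 and 6, and Slc25a37 alone passed without Khk KO replicate 3 or without WT replicate 2. None passed without Khk KO replicate 1, 2 or 4 or without WT replicate 4, and all 6 passed without WT replicate 1. How many of all genes passed in these fits is not given here, so the counts cannot be set against an ordinary share.

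**Figure D1:**
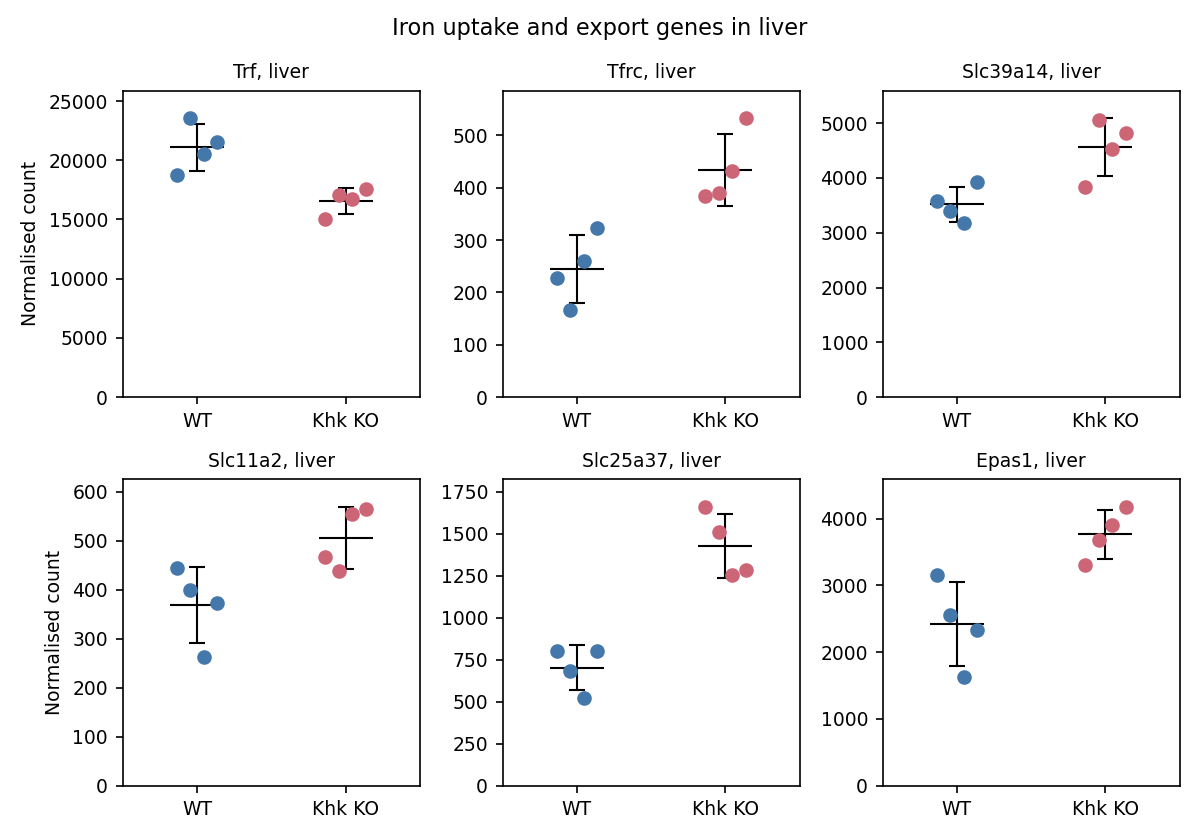
Normalised counts of the 6 genes in liver, 1 panel per gene, with the genotype on the x axis. Points are libraries, and the black line and bars are the mean and SD of 4. The genotypes do not overlap for Trf, Tfrc, Slc25a37 and Epas1, while 1 Khk KO library lies within the WT range for both Slc39a14 and Slc11a2.

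Trf encodes transferrin, the iron carrier of plasma, which the liver secretes (ENSMUSG00000032554, chromosome 9, 103204001 to 103230444, minus strand). Khk KO livers held 15035, 17035, 16718 and 17590 normalised counts in replicates 1 to 4. WT livers held 18752, 23537, 20524 and 21580 normalised counts. All 4 Khk KO libraries lay below all 4 WT libraries, as the genotypes did not overlap for 65.0% of the genes in the liver table. The means were 16595 ± 1100.2 in Khk KO and 21098 ± 2001 in WT (SD, n = 4). On the log2 scale the change was -0.32 ± 0.10 (SE), which did not pass in edgeR's quasi-likelihood test (adjusted p = 0.0589), while the authors' deposited table gave an adjusted p of 0.0275. With the length trend taken out it was -0.02. The predicted gene Gm20425, on the same strand, overlaps 63.5% of the exon bases of Trf, so their reads could be split or shared and the count of Trf is uncertain in every organ.

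Tfrc encodes the transferrin receptor, through which cells take up transferrin-bound iron (ENSMUSG00000022797, chromosome 16, 32608920 to 32632794, plus strand), and its 3′ UTR holds the 4 elements printed above. Khk KO livers held 384, 389.7, 432 and 532 normalised counts. WT livers held 228, 167, 259 and 323 normalised counts. Every Khk KO library was above every WT library, and Khk KO replicate 4 was the highest. The means were 434 ± 68.8 in Khk KO and 244 ± 65.0 in WT (SD, n = 4). Tfrc rose by 0.86 ± 0.21 (SE) on the log2 scale in edgeR's quasi-likelihood test (adjusted p = 0.0255), and the authors' deposited table gave an adjusted p of 0.00212. The rise did not pass with the length trend taken out (0.41, adjusted p = 0.526) or with the trend with GC content taken out (0.31, adjusted p = 0.635).

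Slc39a14 encodes ZIP14, a carrier of iron not bound to transferrin that is abundant in hepatocytes (ENSMUSG00000022094, chromosome 14, 70303469 to 70351425, minus strand). Khk KO livers held 3842, 5059.7, 4527 and 4812 normalised counts. WT livers held 3582, 3394, 3175 and 3921 normalised counts. In all, 3 Khk KO libraries lay above all WT libraries and Khk KO replicate 1 lay within the WT range. The means were 4559.8 ± 526 in Khk KO and 3518 ± 316 in WT (SD, n = 4). The log2 fold change was 0.40 ± 0.13 (SE) with an adjusted p of 0.0573 in edgeR's quasi-likelihood test, and it was -0.46 (adjusted p = 0.140) with the length trend taken out, so its direction depended on the fit. With the GC trend taken out it was 0.45 and passed (adjusted p = 0.0378), and the authors' deposited table gave an adjusted p of 0.0333. At 10550 bases in the files, Slc39a14 is the longest of the 7 genes.

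Slc11a2 encodes DMT1, the divalent metal transporter of endosomes and of the apical membrane of duodenal enterocytes (ENSMUSG00000023030, chromosome 15, 100387898 to 100425072, minus strand). Khk KO livers held 466, 438, 556 and 564 normalised counts. WT livers held 444, 399, 262 and 373 normalised counts. The genotypes overlapped, with Khk KO replicate 2 below WT replicate 1. The means were 506 ± 63.5 in Khk KO and 369.7 ± 77.4 in WT (SD, n = 4). The log2 fold change was 0.48 ± 0.19 (SE), or 0.04 with the length trend taken out. The TMM value did not pass in edgeR's quasi-likelihood test (adjusted p = 0.112) or in the authors' deposited table (0.0742).

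Slc25a37 encodes mitoferrin-1, which brings iron into mitochondria and is best known from red cell precursors (ENSMUSG00000034248, chromosome 14, 69241848 to 69285112, minus strand). Khk KO livers held 1659, 1509, 1253 and 1284 normalised counts. WT livers held 802, 684, 522.5 and 802 normalised counts. The lowest Khk KO library stood above the highest WT library by more than the SD of either genotype. The means were 1426 ± 193 in Khk KO and 703 ± 132 in WT (SD, n = 4). Slc25a37 rose by 1.05 ± 0.18 (SE) on the log2 scale (adjusted p = 0.0172 in edgeR's quasi-likelihood test), and the authors' deposited table gave an adjusted p of 2.4e-06. The rise also passed once the length trend was removed (0.66, adjusted p = 0.0177) and with the GC trend taken out (0.87, adjusted p = 0.0136). Its adjusted p missed the threshold without Khk KO replicate 1 (0.0566), 2 (0.0676) or 4 (0.0504) or without WT replicate 4 (0.0529), where the log2 fold changes were 0.93, 0.98, 1.06 and 1.11.

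Epas1 encodes HIF-2α, an oxygen- and iron-sensitive transcription factor that is known to activate Slc11a2 and Slc40a1 in the intestine (ENSMUSG00000024140, chromosome 17, 86753907 to 86833410, plus strand). Khk KO livers held 3313, 3687, 3899.5 and 4178 normalised counts. WT livers held 3155, 2558, 1630.3 and 2326 normalised counts. The genotypes did not overlap, though Khk KO replicate 1 and WT replicate 1 lay close together, and WT replicate 3 was the lowest. The means were 3769 ± 365 in Khk KO and 2417 ± 630.4 in WT (SD, n = 4). Epas1 rose by 0.66 ± 0.19 (SE) on the log2 scale (adjusted p = 0.0416 in edgeR's quasi-likelihood test), and the authors' deposited table gave an adjusted p of 0.00718. It did not pass with the length trend taken out (0.44, adjusted p = 0.123).

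Markers of other liver cells differed in the same libraries, and calls for markers are those of the authors' deposited table. Of 6 endothelial markers, cells known to express Epas1 strongly, the 3 in the table (Kdr, Stab2 and Tek) were all called higher in the authors' deposited table, and their summed normalised counts ran from 2397 to 2555 in Khk KO against 742 to 1933 in WT. WT replicate 3 had the lowest endothelial sum, and it was also the lowest liver library for Epas1, Slc11a2, Slc25a37 and Slc39a14. Of 12 erythroid markers, cells that depend on Tfrc and Slc25a37, the 5 in the table (Alas2 and 4 globin genes) were all called lower in the authors' deposited table, with sums of 2967 to 3515 in Khk KO against 4584 to 10959 in WT. Of 11 Kupffer cell and macrophage markers, 6 were in the authors' deposited table and 5 of these were called lower, with sums of 3360.5 to 5086 against 4285 to 11846. Of 10 genes of dividing cells, 4 were in the authors' deposited table and 3 of these were called lower, with sums of 369 to 429.7 against 534 to 659.5. The labelled organ's own hepatocyte markers were abundant. Their sum over the 6 in the table, of 7 listed, overlapped between the genotypes (311668 to 360868 against 331627 to 484104), and the authors' deposited table called 1 of the 6 higher and 4 lower. The part of these markers in the results of the iron genes was not tested, and in bulk tissue fewer cells of a type cannot be told from less RNA per cell. The length trend was not taken out of marker values here or in the intestine, and its part in them was not tested.

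Per length, the 6 genes kept one order in both liver genotypes. Mean FPKM in Khk KO and WT was 423 and 547 for Trf, 60.1 and 39.1 for Epas1, and 36.6 and 28.7 for Slc39a14. Slc25a37 ran from 17.8 to 23.2 in Khk KO and from 7.56 to 11.5 in WT, and Slc11a2 from 5.85 to 7.48 and from 3.60 to 5.89. Mean FPKM was 5.95 and 3.39 for Tfrc. The carrier protein's transcript was thus by far the most abundant, and those of the receptor and of DMT1 the least. Between neighbours in this order, the libraries of Slc11a2 and Tfrc overlapped in both genotypes and those of Epas1 and Slc39a14 overlapped in WT only, and no other neighbours overlapped.

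**Figure D2:**
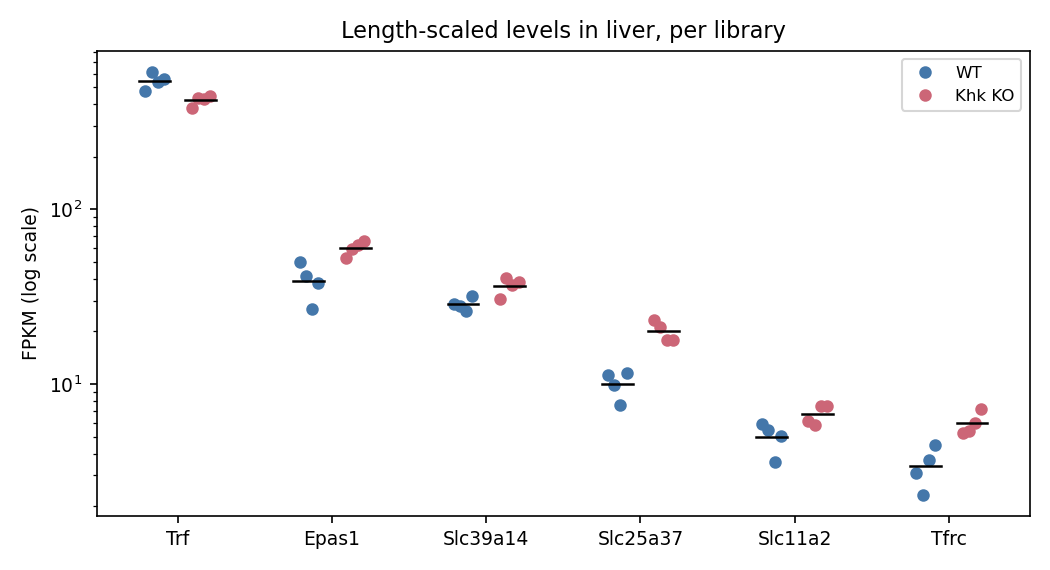
FPKM in liver on a log scale for the 6 genes, in order of their WT mean, with 1 point per library and a line at each group's mean. Trf lies near 423 in Khk KO and 547 in WT, and Tfrc and Slc11a2, at the right, overlap in both genotypes.

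None of the genes passed in the duodenum or the jejunum. In the duodenum only Slc25a37 was in the table. Khk KO libraries held 1069.9, 839, 864 and 1024 normalised counts. WT libraries held 793, 599.9, 669.7 and 792 normalised counts. Each Khk KO library was above each WT library, as the genotypes were apart for 45.9% of the genes in the duodenum table. The means were 949 ± 115 and 713.5 ± 95.2 (SD, n = 4). This gave a log2 fold change of 0.56 ± 0.14 (SE; adjusted p = 0.958 in edgeR's quasi-likelihood test), and the authors' deposited table gave an adjusted p of 0.414. With the length trend taken out it was 0.25, and without WT replicate 1 it was 0.54 (adjusted p = 0.659). The TMM scaling of this fit raised the median gene of the duodenum table by 0.15 over the authors' size factors, with which Slc25a37 was at 0.41, and the median log2 fold change of the table was -0.18. In the duodenum 0.0064% of genes passed in edgeR and 0.224% in the authors' deposited table, or 0.0711% and 2.23% of the genes in the table.

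In the jejunum the 3 listed genes had a median log2 fold change of 0.40, against 0.25 for the table. Slc25a37 was at 2386, 2549.8, 2656 and 2677 normalised counts in Khk KO. It was at 2122.5, 1672, 1962 and 2005 in WT. The genotypes did not overlap, as for 56.0% of the genes in the jejunum table, and the means were 2567 ± 133 and 1940.3 ± 191 (SD, n = 4). The log2 fold change was 0.40 ± 0.10 (SE), or 0.22 with the length trend taken out, with an adjusted p of 0.237 in edgeR's quasi-likelihood test, and it was 0.40 (adjusted p = 0.130) without WT replicate 1. In the authors' deposited table Slc25a37 had an adjusted p of 0.112, and DESeq2 gave 0.00343, so this gene passed in 1 of the 3 tests. DESeq2 called 347 of the 9881 genes adjusted over in jejunum, 285 higher and 62 lower, where edgeR called 1. In the jejunum 0.0101% of genes passed in edgeR and 0.759% in the authors' deposited table, or 0.0489% and 3.11% of the genes in the table.

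Tfrc, which enterocytes use mainly on the side facing the blood, was at 2664, 3164, 2965 and 3145 normalised counts in Khk KO jejunum. It was at 1889, 2293, 2632 and 2175 in WT jejunum. The lowest Khk KO library was just above the highest WT library. The enterocyte markers in the jejunum table, 3 of 8 listed, went both ways. Mean normalised counts in Khk KO and WT were 33304 and 23232 for Alpi and 65769 and 50243 for Sis, both higher like Tfrc, and 87885 and 128146 for Apoa4. The authors' deposited table called none of the 3, and their part in the value of Tfrc was not tested. The means of Tfrc were 2985 ± 232 and 2247 ± 308 (SD, n = 4). The log2 fold change was 0.40 ± 0.14 (SE; adjusted p = 0.237 in edgeR's quasi-likelihood test) and 0.21 with the length trend taken out, and the authors' deposited table gave an adjusted p of 0.151. Without WT replicate 1, the lowest WT library, it was 0.28 (adjusted p = 0.168). Per length, Tfrc (mean FPKM 28.4 in Khk KO and 21.4 in WT) and Slc25a37 (25.1 and 19.0) overlapped in the jejunum, and Trf (0.899 and 1.67) lay below both.

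Trf was low in the jejunum and its WT libraries were widely spread. Khk KO libraries held 67.7, 47.2, 42.4 and 45.6 normalised counts. WT libraries held 179, 68.2, 37.9 and 89.4 normalised counts. WT replicate 3 was the lowest of all 8 and WT replicate 1 the highest, at 2.74 times the mean of WT replicates 2 to 4, so the genotypes overlapped. The means were 50.7 ± 11.5 and 93.5 ± 60.6 (SD, n = 4). In log2 terms the difference was -0.84 ± 0.42 (SE; adjusted p = 0.367 in edgeR's quasi-likelihood test), -0.56 with the length trend taken out and -0.41 without WT replicate 1, and the authors' deposited table did not adjust its p-value. Across the 8 libraries Trf was ordered much like the 4 smooth muscle markers in the jejunum table (Acta2, Actg2, Cnn1 and Des, of 6 listed). Their summed normalised counts were 11341, 8225, 7805 and 7709 in Khk KO and 22433, 13948, 9428 and 14575 in WT. WT replicate 1 was highest and WT replicate 3 lowest among WT libraries for both. Unlike its Trf, the smooth muscle sum of WT replicate 3 lay above those of Khk KO replicates 2, 3 and 4. Of 5 goblet cell markers 2 were in the table, Tff3 and Zg16, and their sum, though not each gene, had the same extremes among WT libraries. Their sums were 31344 to 39718 in Khk KO against 48442 to 76792 in WT. The authors' deposited table called 1 goblet marker, Zg16, lower and none of the 4 smooth muscle markers. The part of smooth muscle or goblet cells in the value of Trf was not tested.

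**Figure D3:**
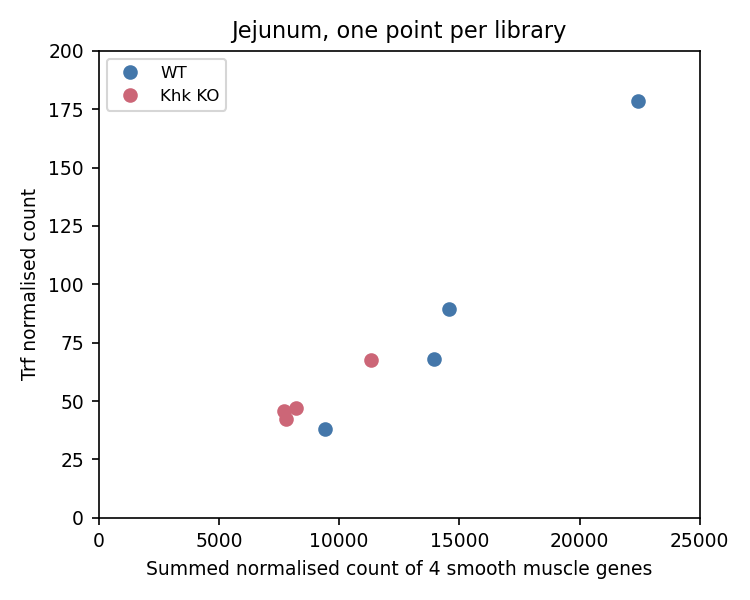
Trf against the summed normalised counts of 4 smooth muscle genes in jejunum, 1 point per library, coloured by genotype. WT replicate 1, at 22433 and 179, lies apart at the upper right.

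In the ileum 1 gene fell, Trf, and 1 rose, Slc40a1. The edgeR test called 13.9% of the genes of the ileum comparison, 7.50% higher and 6.36% lower, and the share in the authors' deposited table was 15.6%, with 8.76% higher and 6.86% lower. Of the genes in the table, edgeR called 46.4% of those fitted and the share in the authors' deposited table was 48.3%. Both tests called both genes. The median log2 fold change of the 2 was -0.17, and that of the table -0.27. With the length trend or the GC trend taken out neither passed, where 476 and 935 of the 4788 fitted genes of the ileum table did.

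Trf held 92.8, 67.6, 73.2 and 62.6 normalised counts in Khk KO ileum. It held 188, 203, 80.8 and 153 in WT ileum. In all, 3 Khk KO libraries were below all WT libraries, where the genotypes were apart for 66.8% of the genes in the ileum table, and WT replicate 3, the lowest WT library, was below Khk KO replicate 1. The means were 74.0 ± 13.2 and 156 ± 54.4 (SD, n = 4). Trf fell by 1.06 ± 0.29 (SE) on the log2 scale (adjusted p = 0.0360 in edgeR's quasi-likelihood test), and the authors' deposited table gave an adjusted p of 0.00842. It was at -0.79 with the length trend taken out (adjusted p = 0.236) and at -0.83 with the GC trend taken out (adjusted p = 0.152). It also missed the threshold without any 1 of the 4 Khk KO libraries (adjusted p from 0.0620 to 0.0962) or without WT replicate 2 (0.0998), and passed without WT replicate 1 (-1.03, adjusted p = 0.0328).

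Slc40a1 encodes ferroportin, the known iron exporter of vertebrate cells (ENSMUSG00000025993, chromosome 1, 45908068 to 45926523, minus strand), and its 5′ UTR holds the element printed above. Khk KO libraries held 839, 1583.5, 1131 and 1536 normalised counts. WT libraries held 939.9, 847, 700.5 and 643 normalised counts. In all, 3 Khk KO libraries were above all WT libraries, and Khk KO replicate 1 lay within the WT range. The means were 1272 ± 353 and 783 ± 136 (SD, n = 4). Slc40a1 rose by 0.71 ± 0.19 (SE) on the log2 scale (adjusted p = 0.0342 in edgeR's quasi-likelihood test), and the authors' deposited table gave an adjusted p of 0.0178. Scaled by the authors' size factors, the adjusted p was 0.0539, and the log2 fold change shrank to 0.18 without the length trend and to 0.20 without the GC trend. It passed without Khk KO replicate 1 (adjusted p = 0.0267) or without WT replicate 1 (0.75, adjusted p = 0.0224) and not without any other single library (adjusted p up to 0.101). Per length, Slc40a1 (mean FPKM 6.79 in Khk KO and 4.16 in WT) lay above Trf (1.07 and 2.25) in every ileum library.

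Several cell type markers differed in the same ileum libraries. Macrophages, which recycle iron through ferroportin, were covered by 4 of 11 markers (C1qa, C1qb, C1qc and Cd68). All 4 means were lower, 1 of them called in the authors' deposited table, with sums of 2312.5 to 3497.5 in Khk KO against 3238.5 to 4669 in WT. Of 8 enterocyte markers 4 were in the authors' deposited table, with lower means for Alpi, Apoa4 and Fabp2 and a higher mean for Cyp3a11. Fabp2 alone was called, as lower. The sums were 16492 to 24809 against 29547 to 53657, and most of them was Fabp2, with means of 17219 in Khk KO and 31640 in WT. Of 5 goblet cell markers 4 were in the authors' deposited table and 3 were called lower, with sums of 82096 to 117128 against 125101 to 152385. The Paneth cell markers in the table, Itln1 and Lyz1 of 5, summed to 88402 to 116321 against 127307 to 153561, and the authors' deposited table called 1 of them lower. Of 12 erythroid markers 4 were in the authors' deposited table and 3 were called lower, with sums of 1133 to 1487 against 1572 to 2264. The endothelial markers Kdr and Tek, of 6 listed, summed to 732 to 871 against 516 to 664, and the authors' deposited table called 1 higher. The sums of the enterocyte, goblet, Paneth, erythroid and endothelial markers did not overlap between the genotypes, and those of the macrophage markers did. Both dividing cell genes in the table, Mki67 and Top2a of 10 listed, had higher means and the authors' deposited table called 1 of them (5784 to 6609.6 against 3059.5 to 5239). The part of these markers in the values of Trf and Slc40a1 was not tested. Nor was the part of the length trend, which was not taken out of the marker values.

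**Figure D4:**
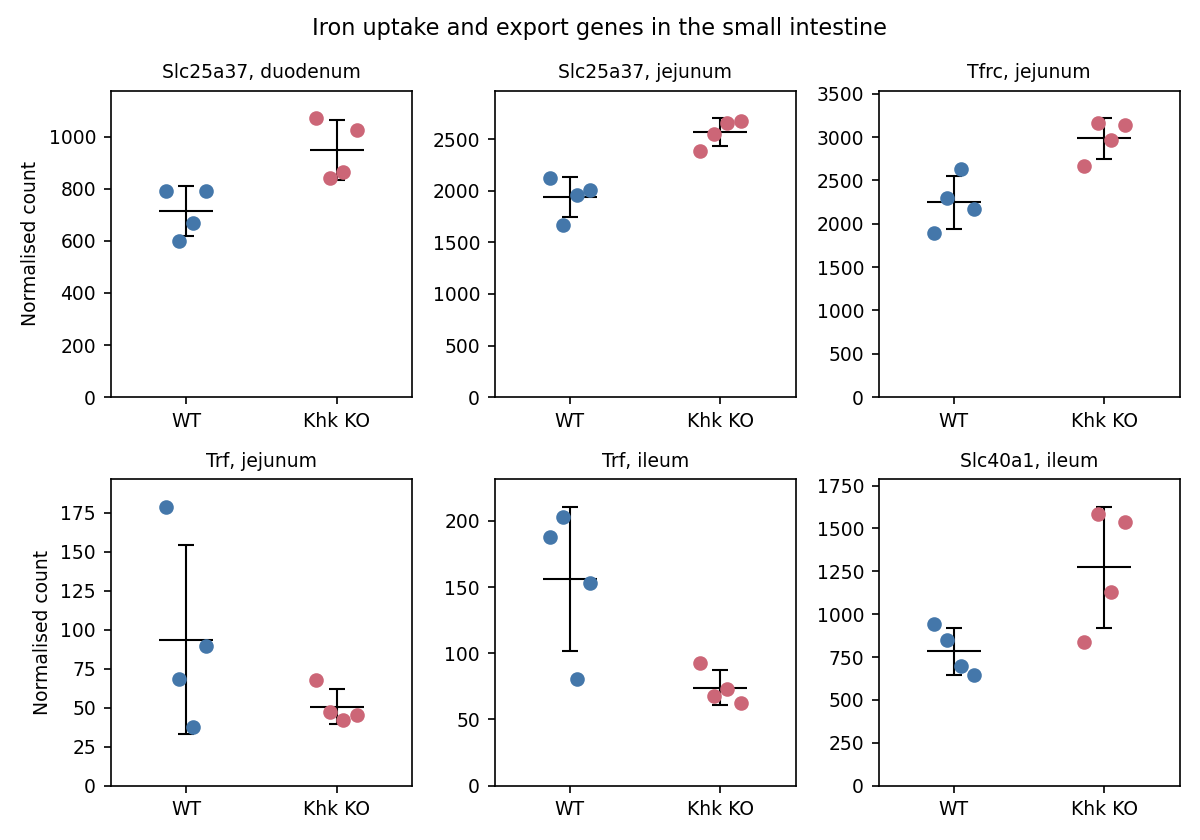
Normalised counts in duodenum, jejunum and ileum, 1 panel per gene and organ, with points for libraries and the mean and SD of 4 in black. The genotypes are apart for Slc25a37 in both organs and for Tfrc, and WT replicate 1 stands at 179 for Trf in jejunum.

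Of the 7, 3 genes were listed in more than 1 organ, and each had the same sign in each of its organs. Fold change followed gene length in the same direction in every table, and how often other shared genes kept their sign was not counted. Slc25a37 was at 1.05, 0.56 and 0.40 in liver, duodenum and jejunum, Tfrc at 0.86 and 0.40 in liver and jejunum, and Trf at -0.32, -0.84 and -1.06 in liver, jejunum and ileum. Whether the effects differed between organs was tested with limma, as the interaction of organ and genotype on log2(normalised count + 1), for the genes found in both organs' tables with a mean of at least 10 in each. Of the 7 differences, 2 had an unadjusted p below 0.05, both of Slc25a37, and 0 passed after adjustment over all shared genes (adjusted p from 0.204 to 0.999). The test called 1.39% of the genes shared by liver and duodenum, 0.0804% for liver and jejunum, 0.0837% for jejunum and ileum, and none for the other pairs. On the authors' size factors, which limma used in place of TMM, Slc25a37 was at 1.032 in liver, 0.413 in duodenum and 0.408 in jejunum. Its effect was estimated as larger in liver than in duodenum by 0.62 (95% confidence interval 0.11 to 1.12, limma adjusted p = 0.204). Against jejunum the liver effect was larger by 0.62 (0.144 to 1.104, limma adjusted p = 0.338), and neither difference passed. These differences were 0.40 (-0.01 to 0.80) and 0.43 (0.08 to 0.78) with the length trend taken out. Between duodenum and jejunum its effects differed by 0.01 (-0.38 to 0.40). For Tfrc the liver effect lay above that in jejunum by 0.44 (-0.12 to 1.00). The effect of Trf in liver lay above that in ileum by 0.66 (-0.01 to 1.32, limma adjusted p = 0.787). These intervals are too wide to show that the organs respond alike, and whether organs came from the same mice is not given in the sources used here. Levels set across organs come from tables that were normalised separately. On that footing Trf stood at a mean FPKM of 547 in WT liver against 1.67 in jejunum and 2.25 in ileum, and Tfrc at 3.39 in liver against 21.4 in jejunum.

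**Figure D5:**
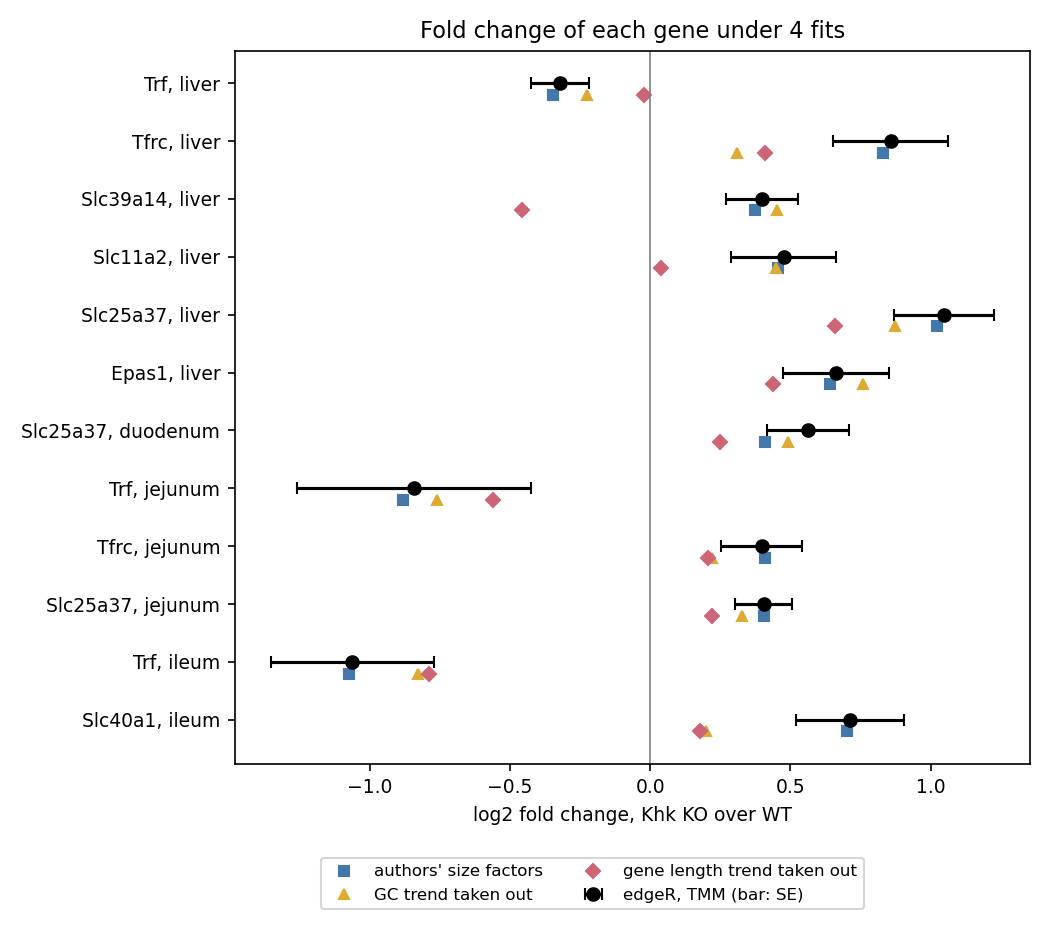
Log2 fold change between Khk KO and WT (above 0 is higher in Khk KO) for each gene and organ. Black points and bars are the edgeR value with TMM and its SE, and coloured points are 3 other fits. With the length trend taken out, Slc39a14 in liver lies at -0.46, and every other value lies nearer to 0 than with TMM.

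The other genes of the pathway came from a list of 63 partners, oxidases, storage proteins, mitochondrial genes, regulators and oxygen-sensing genes. In liver 26 of the 63 were in the table, edgeR called 2 higher and 6 lower, and by the authors' deposited table, 6 were higher and 12 lower. These are 12.7% and 28.6% of the 63, where the same tests called 14.7% and 23.9% of all genes of the liver comparison. Their median log2 fold change was -0.38, against 0.57 for the uptake and export genes and 0.33 for the whole table. Both ferritin subunit genes fell, Fth1 by 0.39 ± 0.10 (SE) and Ftl1 by 0.62 ± 0.11 (SE) on the log2 scale (adjusted p = 0.0283 and 0.0175 in edgeR's quasi-likelihood test). Alas2, the erythroid enzyme that opens haem synthesis, fell by 0.57 ± 0.13 (SE; adjusted p = 0.0246). Hamp, which encodes hepcidin, also fell, by 1.01 ± 0.17 (SE; adjusted p = 0.0163). With the length trend taken out these 4 genes did not pass, and Fth1 and Ftl1 were at 0.31 and 0.03, so the direction of the ferritin genes depended on the fit. In that fit, which called 786 of the 5734 fitted genes of the liver table, 5 of the 26 passed. These were Vegfa and 4 others, of which all but Scara5 are named after their values were seen. The 4 others were Scara5, which encodes a ferritin receptor (-1.25, adjusted p = 0.0249), Exoc6, of the exocyst (0.82, adjusted p = 0.0148), Cp, of the ferroxidase ceruloplasmin (-0.50, adjusted p = 0.0309) and Fbxl5, whose product marks iron-regulatory protein 2 for breakdown (-1.18, adjusted p = 0.0195). None of these 4 passed with TMM, where they were at -0.83, 0.39, 0.29 and -0.32, so the direction of Cp depended on the fit.

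Among the partners of HIF-2α in liver, Arnt, whose product pairs with it on DNA, rose by 0.67 ± 0.20 (SE; adjusted p = 0.0492 in edgeR's quasi-likelihood test) and was at 0.04 with the length trend taken out. Of 9 hypoxia-inducible genes 2 were in the liver table, and they moved in opposite directions. Vegfa, the gene of an endothelial growth factor, rose by 0.47 ± 0.13 (SE; adjusted p = 0.0343), and was at 0.50 and passed with the length trend taken out (adjusted p = 0.0296). Bnip3, a gene of mitochondrial turnover, fell by 0.75 ± 0.17 (SE; adjusted p = 0.0227), and did not pass with the length trend taken out (-0.20). In the RefSeq promoter table, only Tfrc of the 7 genes was matched. Both of its promoter windows held ACGTG or GCGTG, the core letters of a hypoxia motif on either strand, as did 43.8% of all 32851 promoter windows of that length.

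In ileum 16 of the 63 genes were in the table, edgeR called 2 higher and 5 lower, and by the authors' deposited table, 3 were higher and 7 lower. These are 11.1% and 15.9% of the 63, where the same tests called 13.9% and 15.6% of all genes of the ileum comparison. Their median log2 fold change was -0.39, against -0.27 for the table. Ncoa4, whose product delivers ferritin for breakdown, rose by 0.93 ± 0.12 (SE; adjusted p = 0.00357 in edgeR's quasi-likelihood test), and Ireb2, the gene of iron-regulatory protein 2, by 0.57 ± 0.15 (SE; adjusted p = 0.0325). Fth1 fell by 0.51 ± 0.13 (SE) and Ftl1 by 0.69 ± 0.14 (SE; adjusted p = 0.0311 and 0.0127), Iscu, a scaffold of iron-sulfur cluster assembly, by 0.52 ± 0.16 (SE; adjusted p = 0.0481), and Egln2, a prolyl hydroxylase of HIF proteins, by 0.49 ± 0.10 (SE; adjusted p = 0.0135). Cd63, of secreted vesicles, fell by 0.51 ± 0.15 (SE; adjusted p = 0.0436). Once the length trend was removed 0 of these 7 passed, with Ncoa4 at 0.40, Ireb2 at 0.02, Iscu at -0.07, Egln2 at -0.12, Cd63 at -0.32, Ftl1 at -0.14 and Fth1 at 0.08. In that fit, which called 476 of the 4788 fitted genes of the ileum table, 3 of the 16 passed, the latter 2 of them named after their values were seen. They were Mcoln1, of a lysosomal cation channel (-0.83, adjusted p = 0.00393), Alas1, which opens haem synthesis outside red cells (-0.64, adjusted p = 0.0296), and the hypoxia-inducible Ndrg1 (-0.70, adjusted p = 0.0262). With TMM these were at -0.40, -0.33 and -0.35 and did not pass. In jejunum 7 of the 63 were in the table and edgeR called none, while the authors' deposited table called 1 higher, Ncoa4, with an adjusted p of 0.0307, where it called 0.536% of all genes higher. In duodenum 5 were in the table and neither test called any.

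Within genotypes, the genes varied with different partners. Likeness was measured as Pearson's r of the deviations from the genotype means of log2(normalised count + 1) over the 8 libraries of an organ, which share size factors and length trends, and is given as a description with no test. Epas1 and Slc11a2 deviated together in liver (r = 0.94), with WT replicate 1 high and WT replicate 3 low for both. Among all protein-coding genes averaging 100 or more normalised counts, the 2 nearest to Epas1 in liver were Phactr4 and Anks1 (r = 0.99 for both), and the 2 nearest to Slc11a2 were Foxo1 (1.0) and Smad3 (0.98). Tfrc was nearest to Azi2 (0.97) and Tra2b (0.93) in liver, and Slc25a37 to Map3k4 and Ppfibp1 (0.97 for both). Trf was nearest to Anxa6 and Dnase1l3 in liver (0.96 for both), to Des (0.99) and Tpm2 (0.97) in jejunum, and to Alg3 (0.98) and Cnp (0.96) in ileum. Des is a muscle gene. In jejunum Trf and Tfrc deviated in opposite directions (r = -0.95), and WT replicates 1 and 3 were the extreme libraries for both. Slc40a1 was nearest to Fxyd1 (0.98) and Ttll12 (0.94) in ileum, and did not vary with Trf there (r = -0.03).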

How the data were processed

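Polyadenylated RNA was sequenced from liver and 3 gut segments of male Khk KO and WT mice, 4 libraries per group. Reads were handled with HISAT2 2.0.5 and builds GRCm38 and mm10, per the submitters' processing notes. The counting tool and the authors' test are not given in the sources used here, and the labels name directional and non-directional chemistry, so reads of opposite-strand genes cannot be told apart. For each organ the authors deposited a table of read counts, a normalised signal (the count divided by 1 size factor per library), FPKM, a log2 fold change, a p-value and an adjusted p-value. The deposited tables hold genes whose unadjusted p-value is under 0.05 and no others. Ranks of the p-values gave 18225, 15615, 9881 and 16034 genes as those the authors had adjusted over in liver, duodenum, jejunum and ileum. A deposited adjusted p-value of exactly 1 was read as not adjusted.

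Counts were fitted for each organ alone with edgeR 4.0.16 in R 4.3.3 (library sizes implied by the FPKM values, TMM, filterByExpr, quasi-likelihood F test, Khk KO against WT), and p-values were adjusted by Benjamini-Hochberg over the authors' number of genes, at a threshold of 0.05. The fit sees only genes selected on the same 8 libraries, which can bias its estimate of the spread. The SE is the log2 fold change divided by the square root of F. The test was tried on simulated counts with known changes. Trends with gene length or with GC content (GENCODE M21 transcripts) were taken out as a lowess curve (span 0.5) per library, over genes averaging 10 or more normalised counts, with the authors' size factors. Other alternatives were those size factors alone, DESeq2 1.42.0, no filter, adjustment over the table's genes, the replicate number as a block, and leaving out each library. Replicates differed by more than counting error (chi-square per degree of freedom at least 11.7 over 48 pairs). Depth is known only as the reads of listed genes, and intervals of counting error were not used.

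Effects were compared between organs with limma 3.58.1 (an interaction term, with the normalised signal of the deposited tables on a log2 scale and a pseudocount of 1), chosen after seeing the data. The test planned at the start, an exact permutation of genotypes within organs, has as its null no genotype effect in either organ, so it does not test whether 2 effects are equal and its p-values are not used.

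The genes named are the 7 members of the set in every table that holds them, Khk, up to 10 other iron genes per organ past either test, the marker genes in a table and the 2 nearest genes by likeness, and not every gene so selected is described. The members and the lists were chosen with earlier results of these data known. Slc11a2 and Slc25a37 overlap genes on the other strand over 6.33% and up to 6.33% of their exon bases. The deposited coordinates equal GENCODE M21 for the members other than Epas1.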

Additional observations from a re-analysis of the deposited data

Results flagged for a closer look

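None of the 7 iron genes had a library far from the rest of its group by Dixon's test, which was applied to 32 groups of 4 libraries, Khk included. For Khk in jejunum 2 groups did, where chance gives about 1 in 20. Khk KO replicate 1 held 541 normalised counts of Khk, with the other Khk KO libraries at 805 to 837. WT replicate 1 held 13852, with the other WT libraries at 5579.5 to 6647, and is also the library that was highest for Trf in jejunum.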

How the results depend on the processing

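Of the values of single genes under the alternatives, 127 kept their direction and side of the threshold, 14 newly passed, 38 no longer passed and 1 reversed. The reversed one was Slc39a14 in liver, at -0.46 with the length trend taken out. The count of the genes that passed in liver was 3, and it was 5 with DESeq2, 1 with the length trend taken out, 6 when adjusted over the genes in the table, and 0 to 6 without single libraries. Adjusted over the genes in the table, 5199 of the 5734 fitted genes of the liver table passed, so that 6 of 6 is near the ordinary share. In jejunum the count was 0, and it was 1 with DESeq2 and 2 when adjusted over the genes in the table, where Slc25a37 and Tfrc both had an adjusted p of 0.0491, and 0 without any single library. Adjusted over the genes in the table, 1175 of the 2043 fitted genes of the jejunum table passed, and DESeq2 called 347 genes in jejunum. The unadjusted p in edgeR was under 0.05 for Slc25a37 and Tfrc in jejunum and for Slc25a37 in duodenum, where the adjusted count was 0 under every alternative run. All listed genes were selected at that same limit in the authors' test on these libraries, so these unadjusted values were largely set by the selection. In ileum the count was 2, and it was 1 with the authors' size factors, 0 with the length or the GC trend taken out, and 0 to 2 without single libraries. It was 1 without Khk KO replicate 1 or WT replicate 3 or 4, and 0 without Khk KO replicate 2, 3 or 4 or WT replicate 2. How many of all genes passed without single libraries is not given here, so those counts cannot be set against an ordinary share. The cause of these moves in the counts was not tested, except that a lower number of genes to adjust over lowers every adjusted p by construction. The length trend moved the median gene of the jejunum table by 0.16. Calls over all genes fell from 2675 to 786 in liver and from 2221 to 476 in ileum with the length trend taken out, and were 4411 and 3520 with DESeq2. In ileum the calls split 1045 higher and 540 lower with the authors' size factors, against 1202 and 1019 with TMM and 390 and 545 with the GC trend taken out. With the replicate number as a block, the genes that passed were 2 in liver (Epas1 had an adjusted p of 0.0558) and 0 in each of the 3 gut segments. The calls over all genes were 2156 for liver, 1202 for ileum, 0 for jejunum and 1 for duodenum. Same-numbered pairs correlated from -0.27 to 0.31, 3 of 16 over 0.1, and 6 of 16 Khk KO libraries correlated best with their own number. Such correlations cannot show whether the numbers pair the libraries, which the labels do not say. The 7 differences between organs kept their sign and none passed with a pseudocount of 10 or with the limma interaction, with or without the length trend.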
